A study of Sus scrofa with 2 samples.

Results

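Matrix metalloproteinases and their tissue inhibitors were followed through the cells of pig skin. The group holds 8 of the 31908 genes in the count matrices, taken by symbol from a list of names: MMP2, MMP3, MMP9, MMP11, MMP14, TIMP1, TIMP2 and TIMP3. All 8 had UMIs (unique molecular identifiers, which let copies made by PCR be counted once) in both libraries. The study profiled dorsal skin of young, healthy male farm pigs by droplet scRNA-seq to ask whether freezing changes what is measured. One library came from fresh cells with no treatment and one from cells cryopreserved in 90% FBS + 10% DMSO, and in both the tissue was dissociated with enzymes and dead cells and aggregates were removed by cell sorting. The protocol label of the fresh sample also describes freezing, while its title and treatment mark it as fresh. Neither labels nor methods state if one animal gave both, and no exact age was found in them. With 1 library per condition no test was run, every difference describes this pair of libraries, and all intervals are 95% intervals that cover counting error only.

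Matrix metalloproteinases (MMPs) are zinc-dependent enzymes that cut collagens, elastin, proteoglycans and other proteins of the extracellular matrix. Most are secreted as inactive proenzymes, and TIMPs bind the active enzymes and block them. MMP14 sits in the cell membrane, where it activates proMMP2 with the help of TIMP2, so that these 3 proteins act as one set. In skin the family is known for its part in matrix turnover, wound repair and the passage of immune cells.

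The files identify genes by Ensembl number, and gene positions were read from RefSeq for Sscrofa11.1, the build the authors mapped to. MMP2 lies on the minus strand at chr6:30059247-30087031, MMP14 on the minus strand at chr7:76174502-76185931 and MMP9 on the plus strand at chr17:48179690-48186782. MMP11 lies on the minus strand at chr14:49907684-49917494, TIMP2 on the plus strand at chr12:3254794-3300835 and TIMP3 on the minus strand at chr5:12185816-12242599. The TIMP1 gene model, on the plus strand at chrX:42103251-42106289, is marked as partial. The gene name table of the reference has no entry for the number of TIMP2, so TIMP2 is named by the files alone. The row that the files call MMP3 carries the number ENSSSCG00000014985. The gene name table of the reference pairs that number with MMP1, and the files hold no row named MMP1. MMP1, an interstitial collagenase, and MMP3, also called stromelysin 1, are neighbours on chromosome 9, so the values below are given for "the MMP3 row", which may hold UMIs of MMP1, of MMP3 or of both, and no position is given for it.

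The promoters of 3 members are shown because MMP14 and MMP2, an activator and its substrate, were found in many fibroblast-like cells, while MMP9 was found in few cells of another kind. Each sequence is the 250 bases before the annotated gene start, written 5′ to 3′ on the strand of the gene. Capitals mark a GC box (GGGCGG) or an AP-1 motif (TGANTCA), read on both strands, and overlapping matches were counted separately. The regions are chr6:30087032-30087281 for MMP2, chr7:76185932-76186181 for MMP14 and chr17:48179440-48179689 for MMP9.
MMP2: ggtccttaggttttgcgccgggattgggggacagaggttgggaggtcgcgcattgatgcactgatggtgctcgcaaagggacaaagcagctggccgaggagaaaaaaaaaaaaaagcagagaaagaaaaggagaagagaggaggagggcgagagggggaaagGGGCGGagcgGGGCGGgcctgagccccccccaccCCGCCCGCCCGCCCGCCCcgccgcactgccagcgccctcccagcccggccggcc
MMP14: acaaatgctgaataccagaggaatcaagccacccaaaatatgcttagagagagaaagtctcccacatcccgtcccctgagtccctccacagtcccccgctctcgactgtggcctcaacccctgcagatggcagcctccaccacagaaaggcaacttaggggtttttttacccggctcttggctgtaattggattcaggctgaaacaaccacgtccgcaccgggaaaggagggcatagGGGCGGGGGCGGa
MMP9: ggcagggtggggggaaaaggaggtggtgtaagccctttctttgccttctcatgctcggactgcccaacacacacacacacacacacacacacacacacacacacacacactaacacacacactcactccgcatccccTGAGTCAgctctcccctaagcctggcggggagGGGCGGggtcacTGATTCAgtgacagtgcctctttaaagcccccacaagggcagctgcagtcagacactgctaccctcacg
MMP2 had 6 GC boxes and MMP14 had 2, both without an AP-1 match. MMP9 had 2 AP-1 matches with 1 GC box between them, and its matches start 113, 81 and 69 bases before the gene start. Of the 6 members left after TIMP1 and the MMP3 row were set aside, 6 had a GC box and 1, MMP9, had an AP-1 match. TIMP1 was set aside for its partial gene model and the MMP3 row for its open identity. The 250 bases before the TIMP1 model held neither motif. Those before the RefSeq MMP3 gene held 1 AP-1 match, and those before MMP1 none, both without a GC box. The 6 of 6 thus does not extend to the whole group. Over all 20664 protein-coding promoters of this length, 44.4% held a GC box and 5.48% an AP-1 match. A TATA motif (TATAAA), also searched, was in 0 of the 6, beside 10.4% of promoters, and in those of MMP3 and MMP1. A window that also took the first 50 bases of the gene gave the same 6 and 1, beside 48.9% and 6.35% of promoters, while the number of GC boxes rose from 4 to 6 in TIMP2 and from 4 to 5 in MMP11. In TIMP2 the 4 boxes before the start all lie in the outer part of the window, so that a shorter window would miss them. The motifs and windows were chosen after the levels had been seen, and a match is a description of the letters only.

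The fresh matrix held 53271738 UMIs in 4379 barcodes and the cryopreserved matrix 42217632 UMIs in 4860. The limits of the study (at most 4500 genes, 30000 UMIs and 10% mitochondrial UMIs) left 2775 and 4223 cells with a median of 11017 and 7945 UMIs. The libraries shared 5 of the filtered barcodes. Clustering without any MMP or TIMP gene gave 25 clusters. By marker genes, 24 of them fell into 9 lineages, each called by its closest type, and 1 cluster of 25 cells led by hemoglobin genes was left unnamed. Fibroblast-like cells numbered 1215 fresh and 1570 cryopreserved, keratinocyte-like cells 530 and 1058, and smooth muscle cell (SMC) or pericyte-like cells 246 and 374. All 7 fibroblast-like clusters passed 8 of 8 fibroblast markers. There were 201 and 270 endothelial-like, 107 and 135 lymphatic-like, 154 and 275 CD163/CD209 myeloid-like, 106 and 184 Langerhans or dendritic-like, 145 and 253 T or NK-like, and 68 and 82 mast-like cells. Levels below are UMIs of a gene per 1000000 UMIs (CPM), summed over the cells of a lineage, fresh first and cryopreserved second. The assay reads the 3′ end of transcripts, so levels are set against each other for one gene across cells and never between genes.

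Each member had its own distribution, and the leading lineage was the same in both libraries for 8 of 8. MMP2, MMP14 and TIMP2 were highest in fibroblast-like cells. The MMP3 row led in keratinocyte-like, MMP9 in Langerhans or dendritic-like, MMP11 and TIMP1 in SMC or pericyte-like, and TIMP3 in lymphatic-like cells. In each of these cases the counting interval of the leading lineage lay above that of the next one in both libraries. The share of all genes with such agreement was not computed, so neither result sets these members apart from other genes. The plot of levels by lineage shows these 8 patterns side by side.

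**Figure D1:**
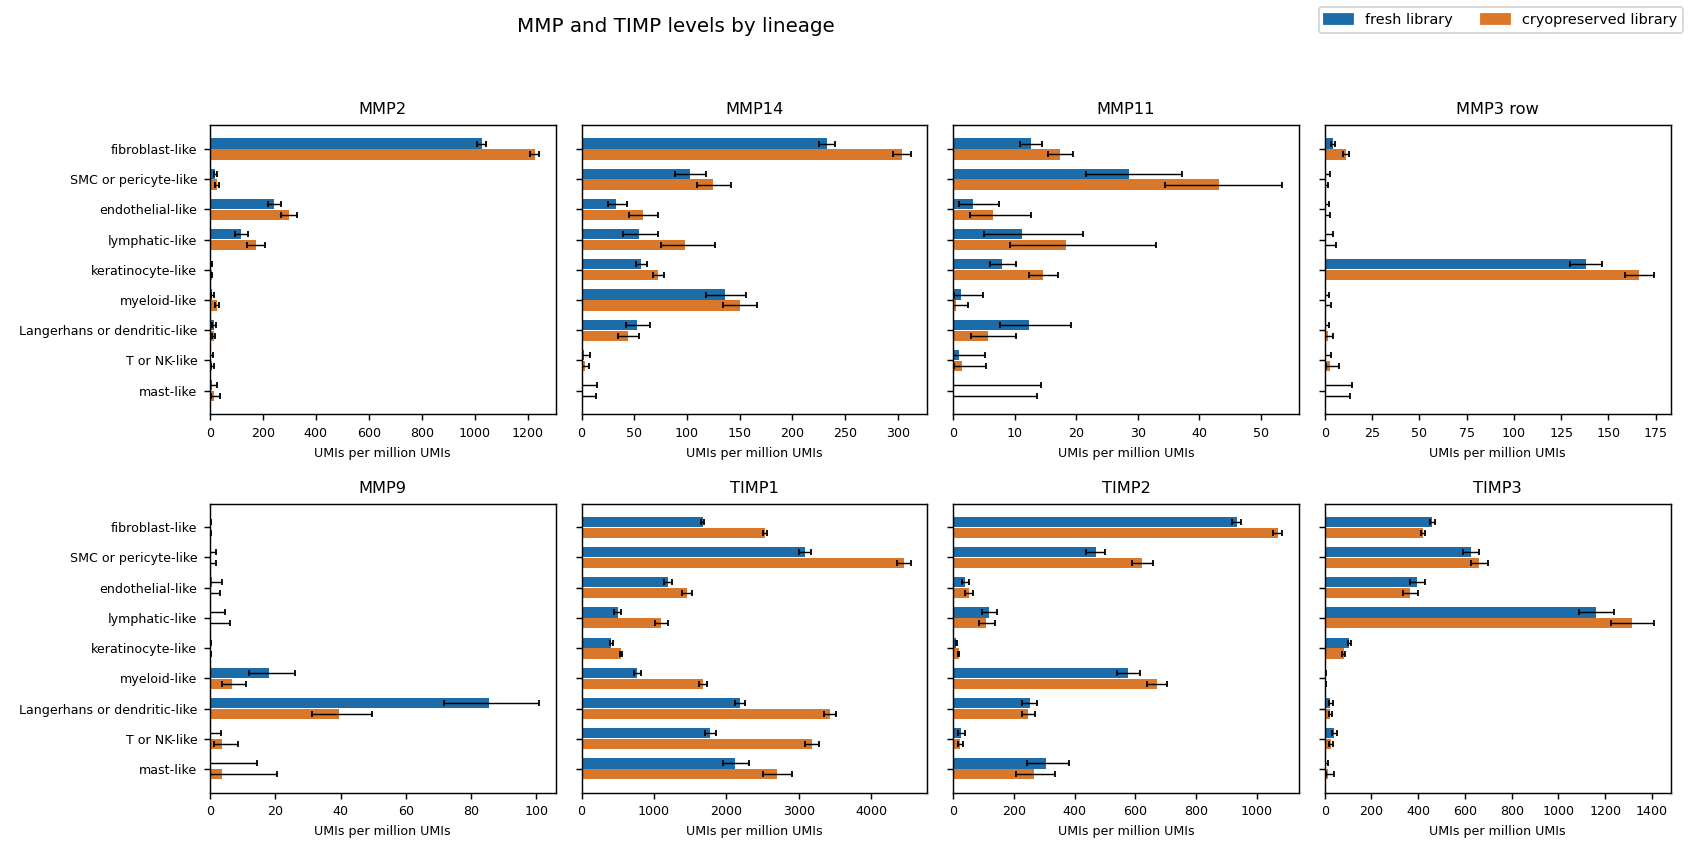
Level in CPM (x axis, linear and starting at 0, with its own range in each panel) of the 8 genes in 9 lineages (y axis), fresh library in blue and cryopreserved library in orange. Bars are pooled over cells and whiskers are 95% Poisson counting intervals. MMP2 stands at 1025 and 1225 in fibroblast-like cells, and the MMP3 row at 138 and 166 in keratinocyte-like cells.

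MMP2, or gelatinase A, which cuts denatured collagen and type IV collagen, was at 1025 CPM (interval 1009 to 1041) in fresh and 1225 CPM (1209 to 1243) in cryopreserved fibroblast-like cells. These cells held 96.5% and 96.7% of all MMP2 UMIs in the filtered cells. Endothelial-like cells came next, at 243 and 297 CPM, then lymphatic-like cells at 116 and 172 CPM. No other lineage was above 27.2 CPM, and below the third place neighbours in the order could not be told apart by their intervals. RNA set free from broken cells adds UMIs to every droplet, so collagen UMIs were used to gauge how many MMP2 UMIs fibroblast RNA would bring. In SMC or pericyte-like cells 37 and 50 MMP2 UMIs were counted, beside 34.8 and 56.1 if their COL1A1, COL1A2 and COL3A1 UMIs had all come with fibroblast RNA. T or NK-like cells, which should lack the gene, had 5 and 13 MMP2 UMIs, beside 5.03 and 5.39 on the same basis. Endothelial-like cells had 382 and 369, beside 4.46 and 37.0, and their COL1A1 level was 91.1 CPM fresh and 1303 CPM cryopreserved. The gauge takes free RNA to have the make-up of fibroblast-like cells, and the part of free RNA was not tested. After each cell was thinned to 2000 UMIs, 69.8% and 80.4% of fibroblast-like cells kept an MMP2 UMI, against 29.8% and 40.9% of endothelial-like and 0% and 1.64% of T or NK-like cells. Unthinned, an MMP2 UMI was found in 90.4% and 94.9% of fibroblast-like cells, with a median of 12659 and 9936.5 UMIs per cell, and in 3.45% and 3.16% of T or NK-like cells, with 6512 and 4820.

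MMP14, the membrane-bound activator of MMP2, was spread more widely. Fibroblast-like cells had 233 CPM (226 to 241) and 304 CPM (296 to 313), and held 78.2% and 76.0% of its UMIs. Myeloid-like cells followed at 136 and 150 CPM and SMC or pericyte-like cells at 103 and 125 CPM. The intervals of these last 2 lineages were apart in the fresh library and overlapped in the cryopreserved library. Keratinocyte-like cells had 56.8 and 72.8 CPM, which rested on 439 and 775 UMIs. T or NK-like cells had 3 and 4 UMIs. In mast-like cells 0 UMIs were found in both libraries, where 3 counts would be 11.7 CPM in the fresh one.

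MMP11, or stromelysin 3, which is unusual in being activated inside the cell by furin, was sparse, with 352 and 557 UMIs. Its level was highest in SMC or pericyte-like cells, at 28.6 CPM (21.5 to 37.2) and 43.2 CPM (34.4 to 53.5). Fibroblast-like cells had 12.6 and 17.3 CPM but, being more numerous, held 56.5% and 51.2% of the UMIs. Among keratinocyte-like clusters the highest was cluster 6, whose leading genes include KRT15 and COL17A1, with 13.6 CPM (26 UMIs) fresh and 33.2 CPM (74 UMIs) cryopreserved. Across the ranks below the first, neighbouring lineages had overlapping intervals in both libraries.

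The MMP3 row came from few cells. It had 1135 and 1965 UMIs, of which keratinocyte-like cells held 94.1% and 90.1%, and it was found in 66 fresh and 141 cryopreserved cells of all kinds. One keratinocyte-like cluster of 194 and 391 cells, cluster 2, with SERPINB2, CCL27, CLDN4 and AREG among its leading genes, reached 354 CPM (333 to 376) and 439 CPM (418 to 460). The row took no part in the clustering. Within cluster 2 only 34 of 194 and 84 of 391 cells had a UMI, and 22 and 42 cells had 10 or more. Those 22 and 42 cells carried 95.3% and 89.6% of the UMIs of the cluster, and the highest cells had 135 and 122. In the other keratinocyte-like clusters the highest level was 37.7 CPM, in the dividing cluster 19 of the cryopreserved library (34 UMIs), which had 0 UMIs in 24 fresh cells. After thinning to 2000 UMIs, 4.77% and 6.63% of keratinocyte-like cells had a UMI, against 0% in T or NK-like and in mast-like cells of both libraries. The plot of cells with a UMI shows this concentration beside that of MMP9.

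MMP9, or gelatinase B, a product of myeloid cells and neutrophils, had 168 UMIs in 40 fresh cells and 98 UMIs in 39 cryopreserved cells. Langerhans or dendritic-like cells had 85.4 CPM (71.7 to 101) fresh and 39.6 CPM (31.2 to 49.6) cryopreserved, and held 82.1% and 77.6% of the UMIs. Myeloid-like cells had 18.0 and 6.69 CPM. Fibroblast-like cells had 2 and 1 UMIs and keratinocyte-like cells 0, where 3 counts would be 0.388 CPM fresh and 0.282 CPM cryopreserved. Inside the leading lineage a small cluster of 9 and 14 cells, cluster 23, was higher than the larger cluster 11. Cluster 23, whose leading genes include CD207, the gene of the Langerhans cell protein langerin, had 232 CPM (26 UMIs in 8 cells) and 347 CPM (38 UMIs in 5 cells). Cluster 11, led by major histocompatibility class II genes, took its name from 4 of 6 dendritic markers and also passed 9 of 11 CD163/CD209 myeloid markers. It had 74.4 CPM (112 UMIs in 10 of 97 cells) and 21.0 CPM (38 UMIs in 16 of 170 cells). A single cell of cluster 11 held 35 of the fresh UMIs and a single cell of cluster 23 held 32 of the cryopreserved UMIs, so these levels rest on very few cells. Cluster 23 also passed 6 fibroblast markers, and 1 of its cells in each library was among the highest doublet scores. The part of doublets in its MMP9 level was not tested.

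**Figure D2:**
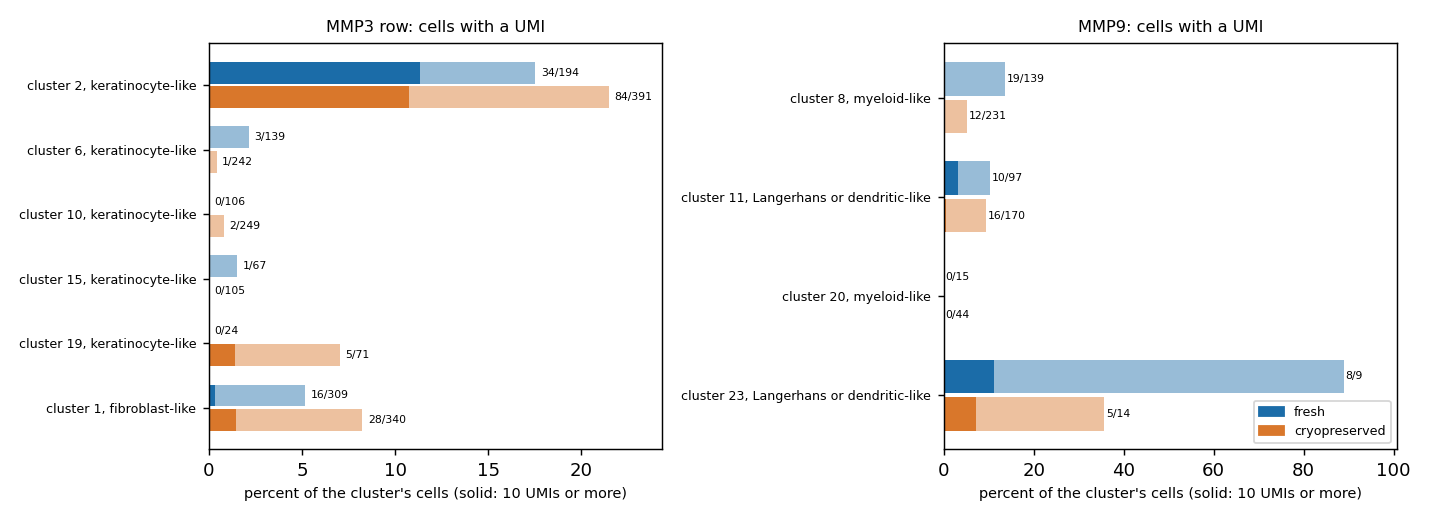
Share of cells with a UMI (x axis, percent of the cells of a cluster) of the MMP3 row (left) and MMP9 (right) in clusters of the lineages that hold most of their UMIs, fresh in blue and cryopreserved in orange. The whole bar counts cells with 1 UMI or more, the solid part cells with 10 or more, and the numbers give cells with a UMI over all cells of the cluster. The MMP3 row was found in 34 of 194 and 84 of 391 cells of cluster 2.

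TIMP1, a secreted inhibitor of most MMPs that is induced by growth factors and cytokines, was found in all 9 lineages. Among lineages it was highest in SMC or pericyte-like cells at 3086 CPM (3008 to 3165) and 4453 CPM (4360 to 4548). It was higher in their RGS5 cluster 9 (3684 and 4851) than in their ACTA2 and MYH11 cluster 12 (2341 and 3776). Single clusters of other lineages were higher. Fibroblast-like cluster 7 had 4776 and 5241 CPM, and myeloid-like cluster 20, at 2418 and 6552 CPM, was higher in the cryopreserved library only. Of the 15 and 44 cells of cluster 20, 5 and 7 were among the highest doublet scores, and the part of doublets was not tested. Next among lineages were Langerhans or dendritic-like cells at 2187 and 3425 CPM. The mast-like level was 2122 and 2700 CPM, the T or NK-like level 1781 and 3183, and the fibroblast-like level 1672 and 2537. The lowest level was in keratinocyte-like cells, at 414 and 547 CPM. The order of lineages was not the same in both libraries. Mast-like cells stood above T or NK-like cells in the fresh library and below them in the cryopreserved library, and endothelial-like and myeloid-like cells also changed places. The fresh mast-like level rested on few cells, as 7 of 68 held 86.4% of its UMIs and 1 cell 139 of 546. Without the top cell of each group, a comparison chosen after seeing the data, fresh mast-like cells had 1642 CPM and fresh T or NK-like cells 1666 CPM. T or NK-like cells had 1894 and 4313 TIMP1 UMIs, beside 8.21 and 11.2 if their collagen UMIs had brought TIMP1 at the fibroblast ratio.

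TIMP2, which both inhibits MMPs and takes part in proMMP2 activation, followed MMP2 and MMP14 in its leading lineage. Fibroblast-like cells had 934 CPM (919 to 949) and 1069 CPM (1053 to 1085), with 85.4% and 82.9% of the UMIs. Myeloid-like cells had 576 and 671 CPM, and SMC or pericyte-like cells 469 and 624. The mast-like level was 307 and 266 CPM, from 79 and 72 UMIs. TIMP2 UMIs in these 3 lineages were more than the collagen-scaled number for fibroblast RNA, for instance 866 and 1503 beside 7.02 and 16.0 in myeloid-like cells. Keratinocyte-like cells had the lowest level, at 10.5 and 18.2 CPM.

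TIMP3, the inhibitor that stays bound to the extracellular matrix, was highest in lymphatic-like cells at 1162 CPM (1089 to 1238) and 1314 CPM (1224 to 1409). SMC or pericyte-like cells had 625 and 660 CPM, fibroblast-like cells 460 and 421, and endothelial-like cells 395 and 366. These first 4 places were the same in both libraries, with no overlap between neighbours. Myeloid-like cells had 4 and 3 UMIs in all. Lymphatic-like cells, the highest for TIMP3, were among the lowest for TIMP1, with 499 and 1104 CPM, where only keratinocyte-like cells were lower.

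The fibroblast-like cells comprised 7 clusters, which were put into 4 groups. Over these groups, though not over the 7 clusters, each of the 3 inhibitors had a wider range than MMP2, MMP11 and MMP14. The MMP3 row, sparse in these cells, had the widest range, at 34.6-fold fresh and 166-fold cryopreserved, over a lowest level of 1 UMI in each library. A cluster joined a subset if its level of the first gene in the subset's name was at least 50% of the highest fibroblast-like cluster level. Cluster 0 formed the MYOC, FGF10, TMEFF2 subset (311 and 434 cells) and cluster 1 the NT5E, SPON1, CPZ subset (309 and 340). Cluster 4 formed the CTHRC1 subset (191 and 264). The gene list of this subset also held POSTN and COL11A1, which are left out of its name. COL11A1 was among the leading genes of cluster 18, one of the remaining clusters, and not among those of cluster 4. The remaining 4 clusters were below that share for MYOC, NT5E and CTHRC1, and the other genes of the subset lists did not enter the rule. Of the 4 groups, MMP2 was highest in the NT5E, SPON1, CPZ subset, at 1320 and 1490 CPM, which was 1.47 and 1.37 times the lowest. Among the remaining clusters, cluster 18 had 974 CPM fresh but 1485 CPM cryopreserved, level with the subset in that library. MMP14 was also highest in the NT5E, SPON1, CPZ subset, at 304 and 412 CPM, and lowest in the CTHRC1 subset, at 177 and 237 CPM. MMP11 ranged from 9.76 to 15.8 CPM fresh and from 13.1 to 22.4 CPM cryopreserved over the 4 groups. Its highest cryopreserved level among fibroblast-like clusters was in cluster 18, led by COCH and including COL11A1, at 38.3 CPM (24 UMIs), and the fresh level there was 29.8 CPM (17 UMIs).

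TIMP1 spanned a wider range than MMP2, MMP11 and MMP14 in these cells. It was at 559 and 687 CPM in the CTHRC1 subset, at 584 and 773 in the NT5E, SPON1, CPZ subset, at 2249 and 3463 in the MYOC, FGF10, TMEFF2 subset, and at 4776 and 5241 in cluster 7, which is led by PTX3. The fold between the highest of the 4 groups, the remaining clusters pooled, and the lowest was 5.44 fresh and 6.23 cryopreserved. Those remaining clusters ran from 430 and 594 CPM in cluster 21 (96 and 86 UMIs) up to the level of cluster 7. Cluster 21 is a dividing cluster of 18 and 15 cells, of which 8 and 3 were among the highest doublet scores. TIMP2 ran in another order. It was highest in the CTHRC1 subset, at 1243 and 1549 CPM, and lowest in the MYOC, FGF10, TMEFF2 subset, at 527 and 657 CPM, a fold of 2.36 in both libraries. TIMP3 was lowest in the CTHRC1 subset, at 303 and 274 CPM, and highest in the remaining clusters pooled, at 638 and 603 CPM. These differed among themselves, from 337 and 295 CPM in cluster 18 to 924 CPM in fresh cluster 21 and 655 CPM in cryopreserved cluster 5. Cluster 21 had 206 TIMP3 UMIs fresh but 59 cryopreserved, or 407 CPM, so its fresh maximum was not kept in the other library. The CTHRC1 subset thus had the highest TIMP2 and the lowest TIMP1 and TIMP3 of the 4 groups in both libraries. Within the fibroblast-like lineage, the MMP3 row was found mainly in the NT5E, SPON1, CPZ subset, with 49 of 66 fresh and 153 of 186 cryopreserved UMIs, while the CTHRC1 subset had 1 UMI in each library.

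**Figure D3:**
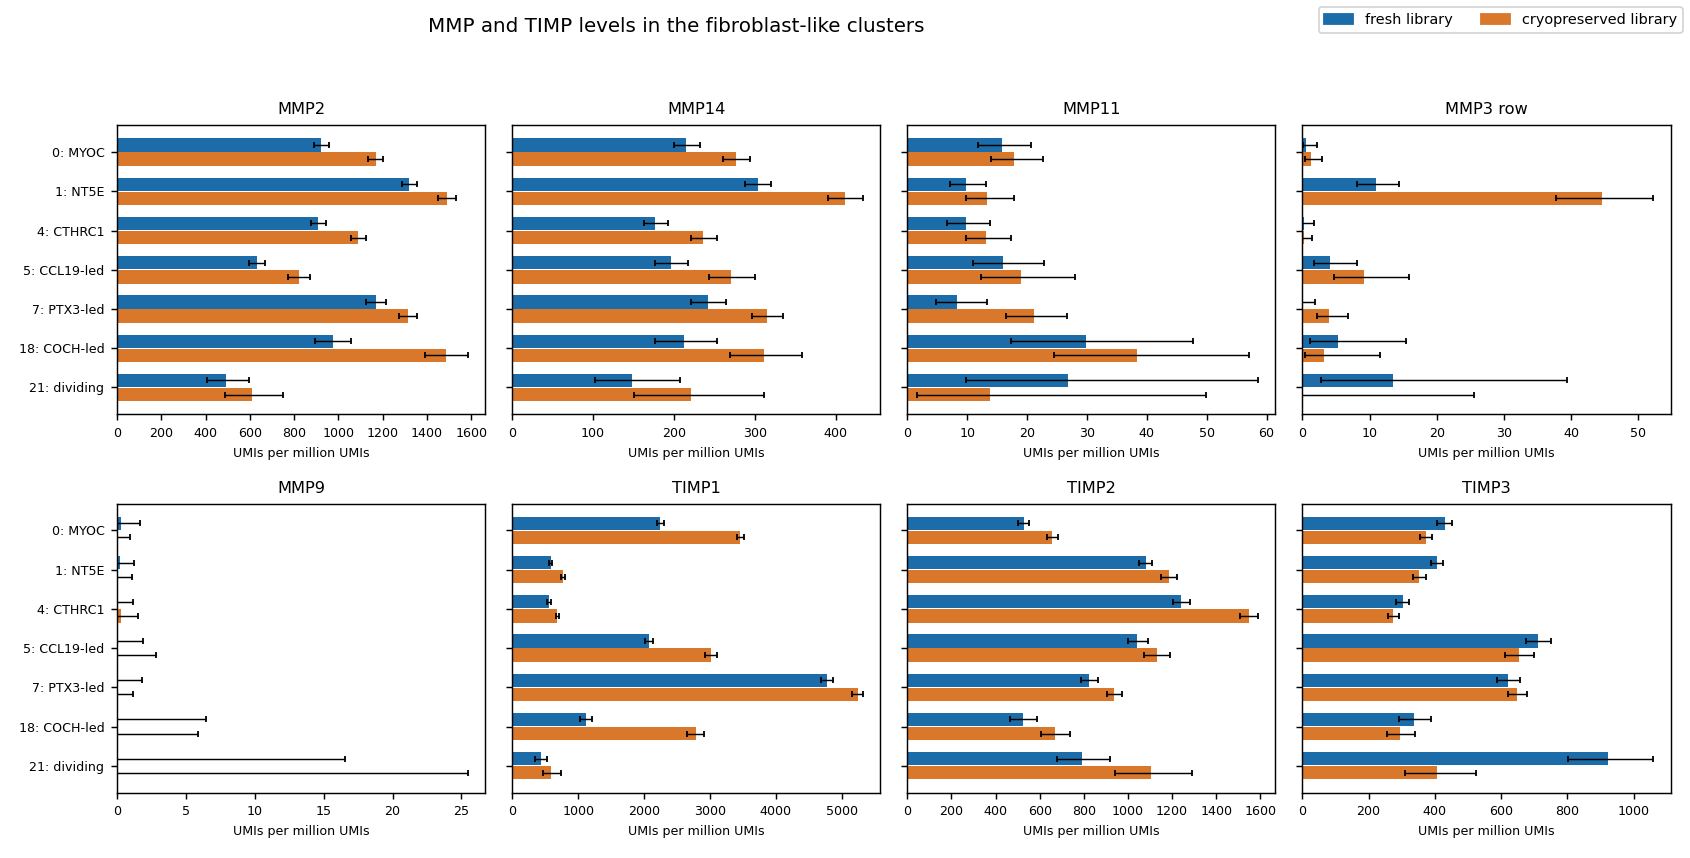
Level in CPM (x axis, linear and starting at 0, own range in each panel) of the 8 genes in the 7 fibroblast-like clusters (y axis, cluster number and a leading or subset gene), fresh in blue and cryopreserved in orange, with 95% Poisson counting intervals. TIMP1 is highest in cluster 7, at 4776 and 5241, and TIMP2 in cluster 4, at 1243 and 1549.

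The 3 genes of the activation set were also read in single cells. Among fibroblast-like cells thinned to 2000 UMIs, 21.0% of 1195 fresh and 28.6% of 1534 cryopreserved cells had at least 1 UMI each of MMP14, MMP2 and TIMP2. The product of the 3 separate shares was 16.3% and 25.8%. In the NT5E, SPON1, CPZ subset alone, 27.4% and 42.1% of cells had all 3, beside products of 23.2% and 38.6%. The shares were nearer to the products in the MYOC, FGF10, TMEFF2 subset (11.2% and 20.9%, beside 10.5% and 19.8%). The same held for the CTHRC1 subset (15.2% and 24.8%, beside 13.6% and 24.2%). The remaining clusters had 17.8% and 27.9%, beside 15.6% and 23.8%. Lineage and subsets were thinned in separate random draws, and the spread between draws was not measured. Cells share a library and a subset, so these shares are given as a description. The 76 fresh and 200 cryopreserved cells under 2000 UMIs, over all lineages, were left out of thinned shares.

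Over the 20 clusters with at least 20 cells in each library, which share cells, library and depth, the log2(CPM + 10) pattern of MMP2 went with that of MMP14 (Pearson's r of 0.71 fresh and 0.74 cryopreserved) and TIMP2 (0.70 and 0.75), and with that of TIMP3 (0.63 and 0.64). Over the 9 lineages in place of clusters, MMP2 had an r of 0.48 and 0.58 with MMP14, 0.29 and 0.34 with TIMP2, and 0.66 and 0.64 with TIMP3. Its pattern was nearest to CLEC3B, the gene of tetranectin, at 0.98 in both libraries. The nearest named gene was EREG, an epidermal growth factor receptor ligand, for the MMP3 row (0.93 and 0.86). That row was at 354 and 439 CPM in cluster 2 and at most at 10.9 and 44.5 CPM in the others of this set, so its r values rest mainly on cluster 2. For MMP9 the nearest named genes were PLCB2 (0.93 and 0.92) and POU2F2 (0.96 and 0.92). Cluster 23, the highest for MMP9, had too few cells and was not among these clusters. In those used, MMP9 lay mainly in clusters 11 and 8, so its r values rest on few clusters. For MMP11 the nearest named genes were KIRREL1 (0.85 and 0.84) and TRIP6 (0.83 and 0.85). MMP14 was nearest to PLOD1 (0.92 and 0.92), followed by SH3PXD2B and CRTAP. PLOD1 and CRTAP act in the modification of collagen chains. ARHGEF2, SLC4A7 and STK10 were nearest to TIMP1 (at most 0.83), CYBRD1, NQO2 and ARHGAP24 to TIMP2, and TNS2, CNN3 and EHD2 to TIMP3. DRAP1 was also among the nearest to the MMP3 row, with 0.67 and 0.62, and the other nearest genes carry no symbol in the files.

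Between the libraries, summed over all filtered cells, none of the 8 members differed by 2-fold or more, a size reached by 2.73% of the 14443 genes with at least 50 UMIs. The log2 ratio of cryopreserved over fresh was 0.13 for MMP2 (16771 and 20829 UMIs), 0.30 for MMP14 (4705 and 6567) and 0.48 for MMP11. It was 0.61 for the MMP3 row and -0.96 (interval -1.34 to -0.59) for MMP9, the member nearest to 2-fold. For the inhibitors it was 0.54 for TIMP1 (44938 and 74027 UMIs), 0.11 for TIMP2 and -0.26 for TIMP3. The median over the 8 was 0.21, beside -0.01 over all genes measured. Without the 1 cell of each library with most MMP9 UMIs its log2 ratio was -1.20, past 2-fold. Fibroblast-like cells were 1215 of 2775 fresh and 1570 of 4223 cryopreserved cells, and such differing lineage shares enter these sums. Within fibroblast-like cells the log2 ratio was 0.26 for MMP2, 0.38 for MMP14 and 0.19 for TIMP2. Within keratinocyte-like cells it was 0.27 for the MMP3 row.

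Within lineages, 44 ratios had at least 50 UMIs, of which 33 were above 0 and 11 below, while 47.3% of all gene and lineage pairs measured were above 0. TIMP1 was higher in the cryopreserved library in 9 of 9 lineages, as were 15.2% of the 1467 genes measured in all of them, from a log2 ratio of 0.29 in endothelial-like to 1.14 in lymphatic-like cells. Single clusters could run the other way: in the KRT1 and KRT10 cluster 15 of the keratinocyte-like cells TIMP1 had 156 and 70 UMIs and a log2 ratio of -1.27, and in cluster 2 it was at -0.09, against 0.40 for the lineage. Past 2-fold were 5 of the 44. The share of all genes past 2-fold was 2.16% in SMC or pericyte-like, 2.96% in keratinocyte-like, 3.02% in endothelial-like, 3.42% in T or NK-like and 4.27% in mast-like cells, where none of the members measured passed, and it stands beside each value for the other lineages. For TIMP1 these were lymphatic-like cells (404 and 661 UMIs), where 5.01% of genes measured passed 2-fold, and myeloid-like cells (1157 and 3752 UMIs, log2 ratio 1.12), where 3.68% did. TIMP1 was higher in both myeloid-like clusters. Cluster 8, with C1QA and CD209, had 582 and 768 CPM, a log2 ratio of 0.40 (0.27 to 0.53). Cluster 20, with CD300C, had 2418 and 6552 CPM, a log2 ratio of 1.44 (1.28 to 1.60). It held 15 and 44 cells, of which 5 and 7 were among the highest doublet scores. MMP2 in myeloid-like cells (14 and 61 UMIs) had a log2 ratio of 1.55, with 27 of the cryopreserved UMIs in 1 cell. Without the top myeloid-like cell of each library the MMP2 ratio was 0.92, with an interval that included 0.

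The MMP3 row was higher in cryopreserved fibroblast-like cells, with 4.18 and 11.3 CPM and a log2 ratio of 1.44 (1.02 to 1.86), where 2.42% of genes passed 2-fold. In the NT5E, SPON1, CPZ subset the values were 10.9 and 44.5 CPM and the log2 ratio 2.03 (1.56 to 2.53), where 2.01% did. Of the 153 cryopreserved UMIs in this subset, 108 lay in 5 of 340 cells, and without the top cell of the subset in each library the log2 ratio was 2.36. In keratinocyte-like cells, which held most UMIs of the row, the log2 ratio was 0.27. MMP9 in Langerhans or dendritic-like cells was the one fall past 2-fold, at -1.11 (-1.53 to -0.69), where 4.81% of genes passed 2-fold. In cluster 11 alone it was -1.83, while cluster 23, with 26 and 38 UMIs, was at 0.58 (-0.17 to 1.36). A single cell held 32 of the 38 cryopreserved UMIs of cluster 23, so its ratio rests on that cell. Another held 35 of the 112 fresh UMIs of cluster 11.

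**Figure D4:**
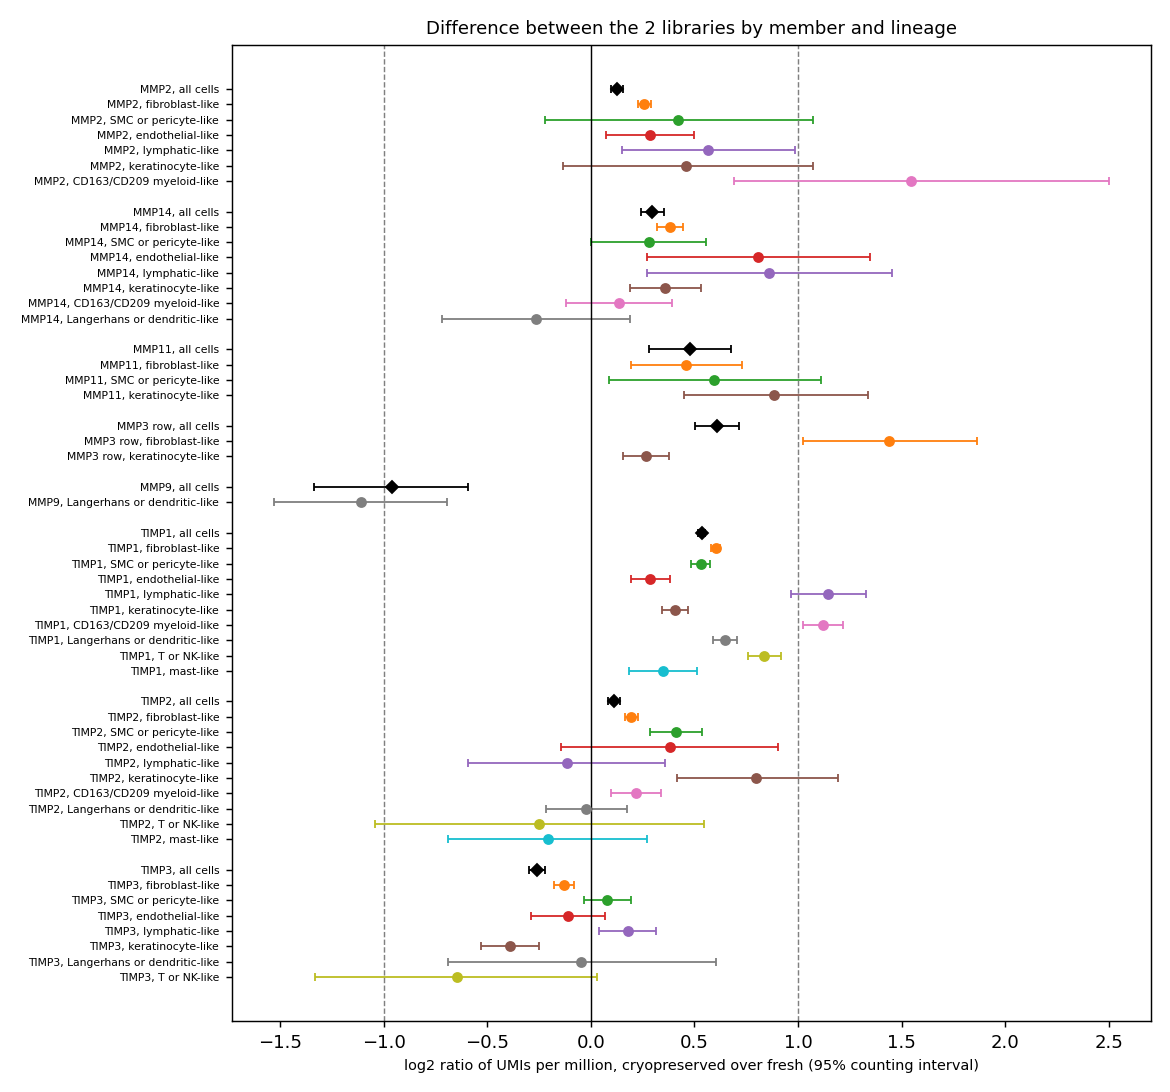
Log2 ratio of CPM, cryopreserved over fresh (x axis), for each gene and lineage with at least 50 UMIs over both libraries (y axis). Points are pooled values, diamonds stand for all filtered cells, whiskers are 95% counting intervals, and dashed lines mark 2-fold. All 9 lineage values of TIMP1 lie above 0, from 0.29 to 1.14, and MMP9 in Langerhans or dendritic-like cells lies at -1.11.

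Of 37 other genes listed for this system, 31 had a row of their own in the files and 25 had at least 50 UMIs. None of the 25 was higher by 2-fold in the cryopreserved library and 1 was lower, beside 1.56% and 1.18% of all genes. That gene was MMP19, with 85 and 44 UMIs and a log2 ratio of -1.13. Of the other MMPs, MMP23B and MMP16, both membrane-anchored, had most UMIs and lay mainly in fibroblast-like cells, at 317 and 458 CPM and at 228 and 164 CPM. TFPI2, a serine protease inhibitor of the matrix, was at 1084 and 1276 CPM in mast-like cells. It was at 866 and 794 CPM in SMC or pericyte-like and at 621 and 776 CPM in fibroblast-like cells. RECK, a membrane-anchored MMP inhibitor, had 2041 and 1263 UMIs and a log2 ratio of -0.88. PLAU, the urokinase that generates plasmin, had 16427 and 29345 UMIs and a log2 ratio of 0.65, which reached 0.97 in fibroblast-like and was -0.21 in keratinocyte-like cells. Its receptor gene PLAUR was at -0.02, CD63, a surface partner of TIMP1, at 0.04, and the collagen chains COL1A1 and COL1A2 at 0.12 and -0.06.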

How the data were processed

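Gene by cell UMI counts of 1 fresh and 1 cryopreserved library of pig skin were used, as the authors deposited them, without normalization. Libraries were made with a 10x Genomics 3′ kit, and the submitters' processing notes name Cell Ranger 4.0.0, STAR 2.5.1b and Sscrofa11.1. Dead cells and aggregates had been removed by sorting. Counts of genes with near-identical copies are uncertain.

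Groups came from titles and treatments. The members and gene lists were chosen with earlier results of these data known. Cells with at most 4500 genes, 30000 UMIs and 10% of UMIs on 13 mitochondrial genes were kept, that is 2775 cells with 32274985 UMIs and 4223 cells with 36687009 UMIs. Libraries were integrated on 2000 variable genes and clustered with Seurat 5.3.0 in R 4.3.3 (30 dimensions, resolution 0.8, 23 MMP and TIMP genes left out). A cluster took the name of the marker list with the highest mean log2 fold over the median of the other clusters, among lists with at least 3 genes that were detected in at least 10% of its cells and at least 2-fold above that median. This scoring, and joining 2 keratinocyte lists, were set after the output had been seen. Scrublet (scanpy 1.11.5) called 3 fresh and 38 cryopreserved doublets. None were removed for the values reported, and removing the 6% with the highest scores was an alternative.

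UMIs were pooled per lineage over total UMIs, with exact Poisson intervals, exact binomial intervals for ratios, and shares after thinning cells to 2000 UMIs. With 1 library per condition no test was run, and a difference of 2-fold over at least 50 UMIs was described. The self-test on simulated counts recovered the known ratios. Named genes were the 8 members, pathway genes past 2-fold, the 2 with most UMIs in each list group, and the 3 nearest in pattern (at least 200 UMIs). Scaling with edgeR 4.0.16 and DESeq2 1.42.0 factors, other cluster settings, cell sets and minimums were tried. Promoter motifs were searched in RefSeq gene starts.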

Additional observations from a re-analysis of the deposited data

Results flagged for a closer look

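TIMP3 differed in direction between lineages: its log2 ratio of cryopreserved over fresh was 0.18 in lymphatic-like cells, -0.13 in fibroblast-like cells and -0.39 in keratinocyte-like cells, with counting intervals that lay on opposite sides of 0. Single clusters did not all follow their lineage. Keratinocyte-like cluster 2 was at 0.23 (-0.07 to 0.54) and fibroblast-like cluster 7 at 0.06 (-0.04 to 0.16), while all other clusters of both lineages were below 0. The difference between lineages was not tested, since each condition had 1 library.

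The barcodes over the maxima for genes, UMIs or mitochondrial share, 1604 fresh and 637 cryopreserved, were left out of the lineages and also held UMIs of all 8 members, above the limit that a count of 0 allows. The levels there were 495 and 419 CPM for MMP2, beside 520 and 568 CPM in the kept cells, and 134 and 131 CPM for MMP14. The MMP3 row had 44.9 and 70.7 CPM, beside 35.2 and 53.6 CPM in the kept cells. MMP9 had 5 UMIs in each library, or 0.238 and 0.904 CPM, beside 5.21 and 2.67 CPM in the kept cells. MMP11 had 7.95 and 12.7 CPM. TIMP1 had 898 and 1284 CPM, beside 1392 and 2018 CPM in the kept cells. TIMP2 had 516 and 449 CPM, and TIMP3 had 306 and 224 CPM.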

How the results depend on the processing

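No paired analysis was possible because each condition had 1 library and the labels give no shared replicate numbers. The leading lineage of each of the 8 members was the same under the 4 other clustering settings tried and with all deposited barcodes. The number of members at least 2-fold different was 0, and 1 (MMP9) without the 1 cell of each library with most UMIs of the gene. The number of pathway genes past 2-fold was 1, and it was 0 with at least 200 UMIs over both libraries and 3 with at least 1 UMI in each, since those minimums admit fewer or more genes. With edgeR and DESeq2 factors 8 of 8 members kept their direction, while 3 and 4 of the 8 ratios left their counting interval. Over all cells, lineages and subsets, 73 of 77 ratios kept their direction with all deposited barcodes and 74 of 77 with the mean over cells. In these settings 25 and 19 of the 77 left their counting interval. Of the 6 differences past 2-fold within lineages and subsets, 5 stayed past it with all deposited barcodes, where the MMP9 log2 ratio cryopreserved over fresh in Langerhans or dendritic-like cells was -0.83, and the cause was not tested. Without the cells of highest Scrublet score, 5 of the 5 still measured did. In alternatives chosen after seeing the data, TIMP1 in the largest myeloid-like cluster alone was at 0.40. In the same way, MMP2 in myeloid-like cells without the top myeloid-like cell of each library was at 0.92. The nearest gene in pattern was the same for 6 of 8 members with a pseudocount of 1, where EREG had an r of 0.69 and 0.65 with the MMP3 row, and for 4 of 8 (MMP2, MMP9, TIMP2 and TIMP3) over lineages in place of clusters. Sparse members, MMP9 and MMP11 above all, limit what these depths can show.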

Other observations

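Among the other MMP genes, and chosen here after their values had been seen, several, among them MMP12, MMP13, MMP23B and MMP27, were each held mostly by one lineage. MMP12, the macrophage elastase, had 196 fresh and 191 cryopreserved UMIs, of which 192 and 187 lay in Langerhans or dendritic-like cells. MMP13, or collagenase 3, had 48 and 61 UMIs, of which 47 and 58 lay in keratinocyte-like cells. MMP27 had 1873 and 1758 UMIs, of which 1856 and 1742 lay in fibroblast-like cells, which also held 5009 of 5098 and 7529 of 7697 UMIs of MMP23B.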
